A study of Chlamydomonas reinhardtii with 12 samples.

Results

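Of the 17693 genes in the deposited expression table, 6 encode enzymes of carotenoid and xanthophyll synthesis and were chosen by gene ID: DXS1 (Cre07.g356350_4532.v6.1), PSY1 (Cre02.g095092_4532.v6.1), PDS1 (Cre12.g509650_4532.v6.1), ZDS1 (Cre07.g314150_4532.v6.1), CHYB1 (Cre04.g215050_4532.v6.1) and ZEP1 (Cre02.g082550_4532.v6.1). All 6 were present, and 5 of them passed the filter on low values; CHYB1 did not. They are read here in poly(A) RNA libraries of the unicellular green alga Chlamydomonas reinhardtii, labelled CC-1690 and either wild-type or vip1-1, a strain deficient in inositol pyrophosphates. Wild-type control and vip1-1 control cells grew in liquid TAP medium, which contains acetate, at 25 ºC and 50 μmol m-2 s-1, and the corresponding high light cells received 1500 μmol m-2 s-1, with 3 biological replicates in each of the 4 groups. The labels do not state how long high light lasted, what the lesion in vip1-1 is, or whether the replicates were grown side by side, and all mutant libraries carry the same allele name. Transcripts of the gene affected in vip1-1 were not analysed here, since no source used pairs its name with a gene ID.

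Carotenoids are made in the chloroplast from five-carbon isoprenoid units supplied by the methylerythritol phosphate pathway, which DXS opens. Phytoene synthase commits these units to carotenoids, phytoene desaturase and ζ-carotene desaturase extend the conjugated double bonds on the way to lycopene, and lycopene is cyclised to α- and β-carotene. Hydroxylation of β-carotene gives zeaxanthin, and zeaxanthin epoxidase turns zeaxanthin into violaxanthin. In strong light algae and plants run this last step backwards with a separate de-epoxidase, and the zeaxanthin formed takes part in the dissipation of excess light energy.

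Levels are FPKM values, fragments per kilobase of transcript scaled to the mapped fragments of the library. Levels of different genes can thus be compared per length where the values were formed alike. Values of PSY1 and PDS1 carry more decimals than those of the other members, and how they were formed is not stated. The FPKM totals of the libraries ranged from 651369 to 767459 and read depth is unknown. For PSY1 and ZEP1 the spread between replicates was larger in high light than in control light in both strains. Wild-type high light replicate 2 had 94 genes listed at 0 while both other libraries of its group were at an FPKM of at least 1, the most of any wild-type library, and vip1-1 high light replicate 1 had 177, the most of all 12. Differences are on the log2(FPKM + 1) scale. They were tested with limma over all 12575 genes that passed the filter, with Benjamini-Hochberg adjustment and a threshold of 0.05. Each p-value sets a difference against the spread between replicate libraries. That spread is a single value per gene over all 4 groups, so it need not match the spread of the groups compared. In these bulk cultures fewer expressing cells and less RNA per cell cannot be told apart.

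**Figure D1:**
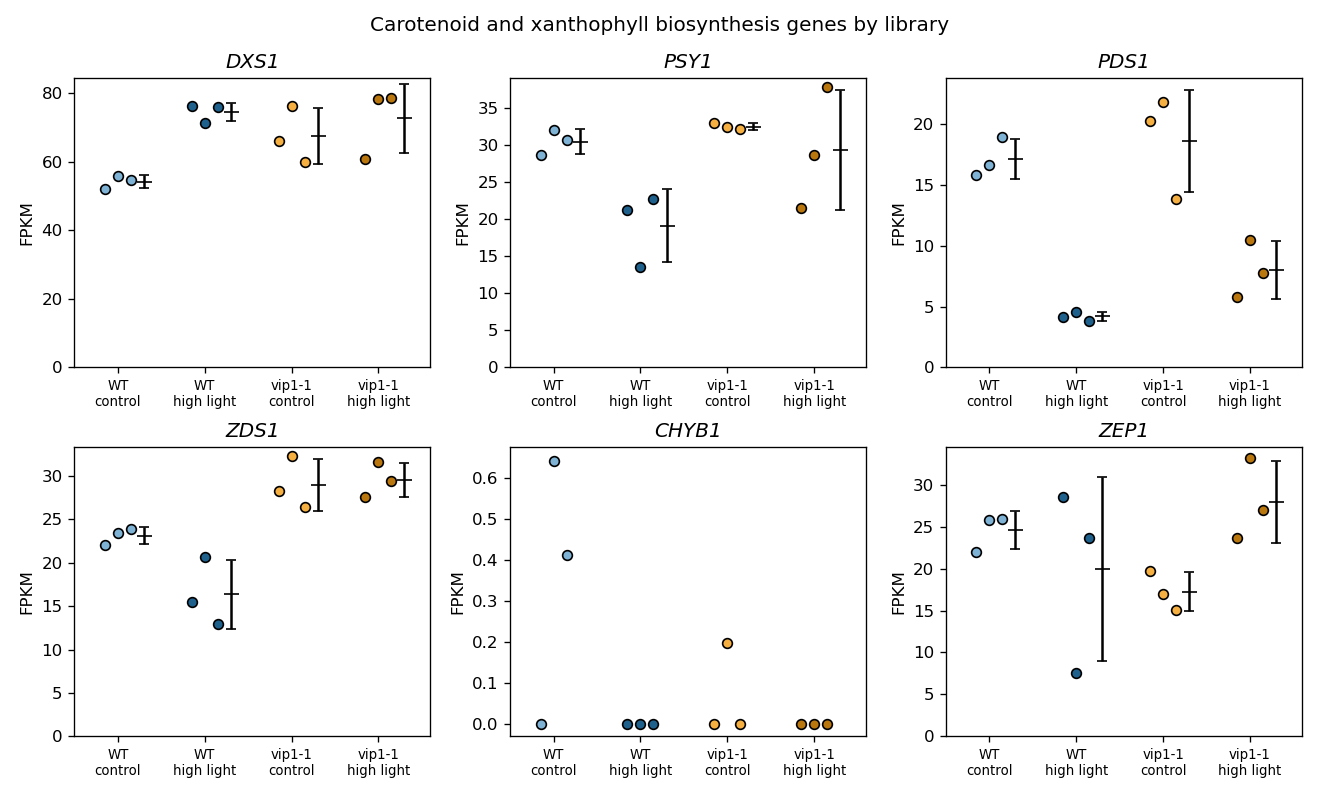
FPKM of each of the 6 genes in the 12 libraries, with points for replicates 1, 2 and 3 from left to right and, for all genes but CHYB1, the group mean with its SD (n = 3) beside them. PDS1 in wild-type high light lies between 3.79 and 4.60 FPKM, below every control library, and CHYB1 is listed at 0 in 9 of 12 libraries.

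DXS1, the 1-deoxy-D-xylulose 5-phosphate synthase at the entry to precursor supply, had the highest level of the 6 in all 12 libraries. In the wild type its FPKM in replicates 1, 2 and 3 was 52.1, 55.9 and 54.6 under control light and 76.3, 71.4 and 76.0 under high light. In vip1-1 the values were 66.2, 76.4 and 60.1 under control light and 61.0, 78.5 and 78.6 under high light. The wild-type control libraries were the lowest, without overlap with any other group, while the other 3 groups overlapped one another. DXS1 rose in high light in the wild type from 54.2 ± 1.98 to 74.6 ± 2.72 FPKM (SD, n = 3), which is 0.45 ± 0.13 log2 units (SE; adjusted p = 0.0120, limma). Over all tested genes the median was 0.39, so DXS1 lay 0.06 above the median gene. Its change was 0.03 (adjusted p = 0.860, limma) after median centring of the libraries and -0.056 (adjusted p = 0.714, limma) when libraries were scaled on the FPKM outside the 1000 most abundant genes. In vip1-1 its light effect was 0.10, with a 95% interval from -0.19 to 0.39 (adjusted p = 0.546, limma).

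PSY1 encodes phytoene synthase, the enzyme of the first step specific to carotenoids. In the wild type its FPKM was 28.6, 32.0 and 30.7 under control light and 21.2, 13.5 and 22.7 under high light. The mutant libraries stood at 33.0, 32.4 and 32.1 under control light and 21.5, 28.7 and 37.7 under high light. The wild-type high light libraries were all below the wild-type control libraries, whereas the vip1-1 high light libraries lay on both sides of their controls. Between control and high light PSY1 fell in wild-type cells from a mean of 30.4 ± 1.71 to one of 19.1 ± 4.89 FPKM (SD, n = 3), which is -0.67 ± 0.21 log2 units (SE; adjusted p = 0.0196, limma) and -1.07 against the median gene. In vip1-1 the log2 light effect was -0.18, with a 95% interval from -0.65 to 0.30 (adjusted p = 0.519, limma). The wild-type call was lost with libraries rescaled to TPM (-0.51, adjusted p = 0.0791, limma) and without wild-type high light replicate 2 (-0.46, adjusted p = 0.0611, limma). It was also lost without wild-type control replicate 2 (adjusted p 0.0584) or replicate 3 (0.0527). Under median centring PSY1 also passed the threshold in vip1-1, with a log2 light effect of -0.60 (adjusted p = 0.0268, limma).

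PDS1, the phytoene desaturase, had the largest light effect of the 5 tested genes in both strains. In the wild type its FPKM was 15.8, 16.6 and 18.9 under control light and 4.18, 4.60 and 3.79 under high light. The vip1-1 values were 20.2, 21.8 and 13.9 under control light and 5.75, 10.5 and 7.73 under high light. No high light library of either strain reached any control library, and every vip1-1 high light library was above every wild-type high light library. In the wild type the mean FPKM fell 4.09-fold, from 17.1 ± 1.62 to 4.19 ± 0.40 (SD, n = 3), which is -1.80 ± 0.21 log2 units (SE; adjusted p = 6.70e-05, limma). In vip1-1 it fell 2.33-fold, from 18.6 ± 4.19 to 7.998 ± 2.39 (SD, n = 3), which is -1.14 ± 0.21 log2 units (SE; adjusted p = 0.00304, limma). Relative to the median gene the changes were -2.20 and -1.51, lower than those of all but 2.68% and 2.47% of the tested genes. Both calls held in all 12 fits with a single library removed, with log2 changes from -1.86 to -1.73 in the wild type and from -1.33 to -0.95 in vip1-1. By mean FPKM, wild-type PDS1 ranked above 81.6% of the tested genes under control light and above 36.3% under high light. The vip1-1 ranks were above 84.5% and above 62.2%.

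ZDS1 encodes the ζ-carotene desaturase, which acts after phytoene desaturase. In the wild type its FPKM was 22.1, 23.5 and 23.9 under control light and 15.4, 20.7 and 12.9 under high light. In vip1-1 it was 28.3, 32.3 and 26.4 under control light and 27.6, 31.6 and 29.4 under high light. All 6 vip1-1 libraries were above all 6 wild-type libraries. Strain ranges did not overlap for 63% of all tested genes in control light and for 47.5% in high light. The strain difference of ZDS1 was called in high light (0.84, adjusted p = 0.00160, limma) but not in control light (0.31, adjusted p = 0.155, limma). In wild-type cells ZDS1 fell under high light, from a mean of 23.1 ± 0.94 to one of 16.3 ± 3.98 FPKM (SD, n = 3), which is -0.50 ± 0.16 log2 units (SE; adjusted p = 0.0187, limma) and -0.89 against the median gene. In vip1-1 the means were 29.0 ± 2.99 and 29.5 ± 1.97 FPKM (SD, n = 3), and the log2 light effect was 0.03 with a 95% interval from -0.32 to 0.38 (adjusted p = 0.897, limma). The wild-type call was lost in 4 of the 12 fits with a single library removed: without wild-type control replicate 2 (adjusted p 0.0523) or 3 (0.0573), and without wild-type high light replicate 1 (0.0560) or 3 (0.0687). It was also lost with libraries rescaled to TPM (-0.33, adjusted p = 0.0862, limma) and with only wild-type libraries in the fit (adjusted p = 0.0514, limma). The vip1-1 effect was negative under median centring, at -0.40 (adjusted p = 0.194, limma).

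CHYB1, the β-carotene hydroxylase that leads to zeaxanthin, was listed at 0 in 9 of the 12 libraries. In wild-type control it was listed at 0 in replicate 1 and stood at 0.643 and 0.413 FPKM in replicates 2 and 3. In vip1-1 control it stood at 0.197 FPKM in replicate 2 and was listed at 0 in replicates 1 and 3. It was listed at 0 in all 6 high light libraries. All 3 values above 0 came from control light and were below an FPKM of 1, so the gene was not tested and no fold is given. Whether the values of 0 are failed estimates is not known, and no difference between groups was assessed for this gene.

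ZEP1 encodes zeaxanthin epoxidase, which removes zeaxanthin by turning it into violaxanthin. In the wild type its FPKM was 22.0, 25.8 and 25.96 under control light and 28.6, 7.60 and 23.7 under high light. The vip1-1 libraries had 19.7, 17.0 and 15.1 under control light and 23.6, 33.2 and 27.0 under high light. The vip1-1 control libraries were below all vip1-1 high light and all wild-type control libraries, while wild-type high light replicate 2 was below every other library. The log2 light effect was -0.47 in the wild type, with a 95% interval from -1.29 to 0.35 (adjusted p = 0.299, limma), and 0.66 in vip1-1, from -0.16 to 1.48 (adjusted p = 0.173, limma). Without wild-type high light replicate 2 the wild-type effect was 0.083 (adjusted p = 0.689, limma) and the vip1-1 effect passed the threshold (0.66, SE 0.15 instead of 0.37, adjusted p = 0.00758, limma). The part of the isolated values of 0 in that library in this result was not tested. Under median centring the wild-type effect passed the threshold, at -0.89 (adjusted p = 0.0354, limma).

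Counted over the 5 tested genes, high light lowered 3 (PSY1, PDS1 and ZDS1) and raised 1 (DXS1) in the wild type. Under median centring and under quantile normalization 4 were lowered (ZEP1 in addition) and 0 raised. Of all 12575 tested genes, 3381 were lowered and 2938 raised under median centring, and 2942 and 3568 under quantile normalization. With libraries rescaled to TPM, or without wild-type control replicate 2 or 3, 1 of the 5 was lowered (PDS1) and 1 raised (DXS1). In these fits 62.2%, 51.1% and 48.3% of all tested genes were called. With all libraries as deposited, 13.7% of all tested genes were lowered in the wild type and 44.7% were raised, 58.4% in all. The median log2 change of the 5 was -0.50 against 0.39 for all genes, and 4 of the 5 lay below the median gene. In vip1-1 high light lowered 1 of the 5, PDS1, and raised 0, beside 4.09% lowered and 37.4% raised, 41.5% in all, among the tested genes. The median of the 5 was 0.03 against 0.38 for all genes, and again 4 of the 5, all but ZEP1, lay below the median gene. FPKM ranges of control and high light did not overlap for 4 of the 5 in the wild type and for 2 of the 5, PDS1 and ZEP1, in vip1-1, beside 66.6% and 54.9% of all tested genes.

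**Figure D2:**
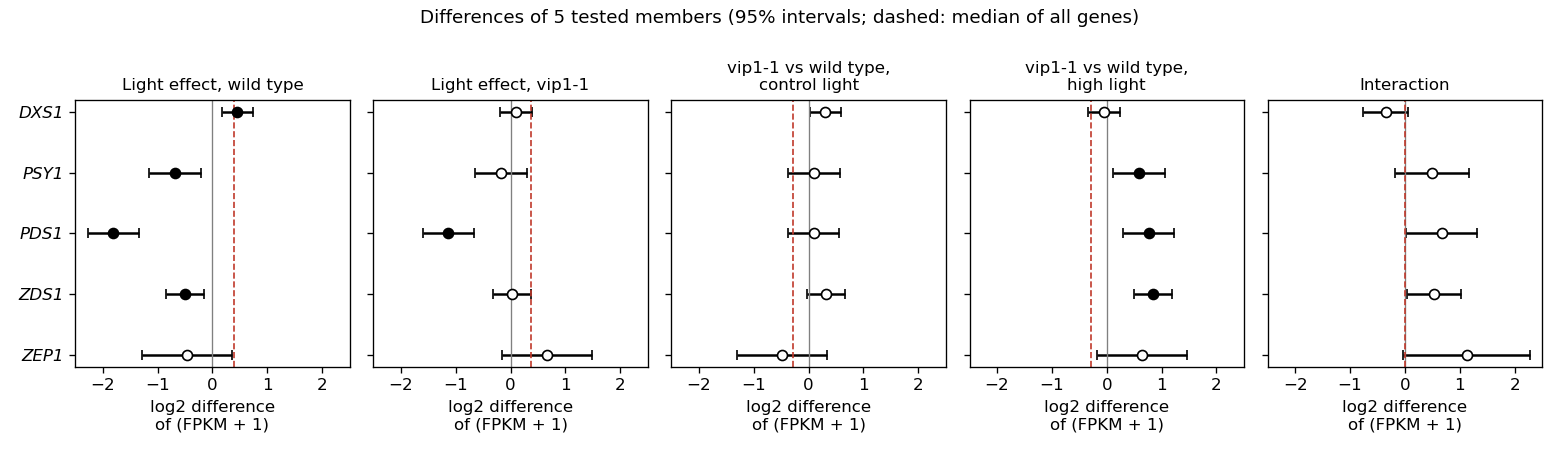
Log2 differences of (FPKM + 1) of the 5 tested genes in the 5 comparisons, with 95% intervals from limma. Filled points have an adjusted p under 0.05, the grey line marks 0 and the dashed red line the median of all tested genes, which is 0.39 and 0.38 in the light comparisons and -0.29 and -0.28 in the strain comparisons.

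In control light none of the 5 genes differed between the strains past the threshold (limma, 0 of 5), and 1 of them, DXS1, had an unadjusted p under 0.05, while 32.4% of all tested genes were called, 6.39% higher and 26% lower in vip1-1. DXS1 was 1.25-fold higher by mean FPKM in vip1-1, a log2 difference of 0.31 with a 95% interval from 0.02 to 0.59 (adjusted p = 0.0945, limma). ZDS1 was also 1.25-fold higher, a log2 difference of 0.31 from -0.04 to 0.66 (adjusted p = 0.155, limma), and ZEP1 was 1.42-fold lower, a log2 difference of -0.49 from -1.31 to 0.33 (adjusted p = 0.336, limma). The FPKM ranges of the strains did not overlap for 4 of the 5 genes (DXS1, PSY1, ZDS1 and ZEP1), beside 63% of all tested genes. PSY1 and PDS1 were close, with log2 differences of 0.09 from -0.38 to 0.57 and 0.09 from -0.37 to 0.56. Most genes were lower in vip1-1 here, with a median log2 difference of -0.29. Under median centring DXS1 (0.65, adjusted p = 0.00360, limma) and ZDS1 (0.66, adjusted p = 0.0372, limma) were called higher. Of all 12575 tested genes, that scaling called 1824 higher and 1267 lower. In a fit of the 6 control libraries alone DXS1, ZDS1 and ZEP1 passed the threshold, with adjusted p of 0.0364, 0.0272 and 0.0129 (limma). That fit called 54.5% of all tested genes. DXS1 also passed the threshold without vip1-1 high light replicate 1 (adjusted p 0.0455), and ZEP1 without wild-type high light replicate 2 (0.0299). There 37.6% and 38.5% of all tested genes were called.

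In high light 3 of the 5 genes, PSY1, PDS1 and ZDS1, were called higher in vip1-1 and 0 lower. Among all tested genes 12.1% were called higher and 34.4% lower, 46.4% in all, and the median log2 difference was -0.28. ZDS1 was 1.81-fold higher by mean FPKM, which is 0.84 ± 0.16 log2 units (SE; adjusted p = 0.00160, limma), or 1.12 above the median gene. PDS1 was 1.91-fold higher, which is 0.76 ± 0.21 log2 units (SE; adjusted p = 0.0123, limma), or 1.04 above the median gene. For these 2 genes the strains did not overlap, beside 47.5% of all tested genes, and both calls held in all 12 fits with a single library removed. PSY1 was 1.53-fold higher, which is 0.59 ± 0.21 log2 units (SE; adjusted p = 0.0438, limma), with overlapping libraries. Its call was lost in 10 of those 12 fits, with adjusted p up to 0.145, and its difference was 0.37 when replicate 2 of wild-type high light was left out and 0.39 when replicate 3 of vip1-1 high light was. The call was also lost in a fit of the 6 high light libraries alone (adjusted p 0.166), with libraries rescaled to TPM (0.0906) and without a filter on low values (0.0526). DXS1 differed by -0.05, with a 95% interval from -0.33 to 0.24 (adjusted p = 0.800, limma), and ZEP1 by 0.64, from -0.18 to 1.46 (adjusted p = 0.185, limma). ZEP1 was called higher under median centring (0.98, adjusted p = 0.0279, limma), but without wild-type high light replicate 2 its difference was 0.085 (adjusted p = 0.702, limma). Median centring called 2883 of all 12575 tested genes higher and 2425 lower. All 5 genes lay above the median gene in this comparison.

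**Figure D3:**
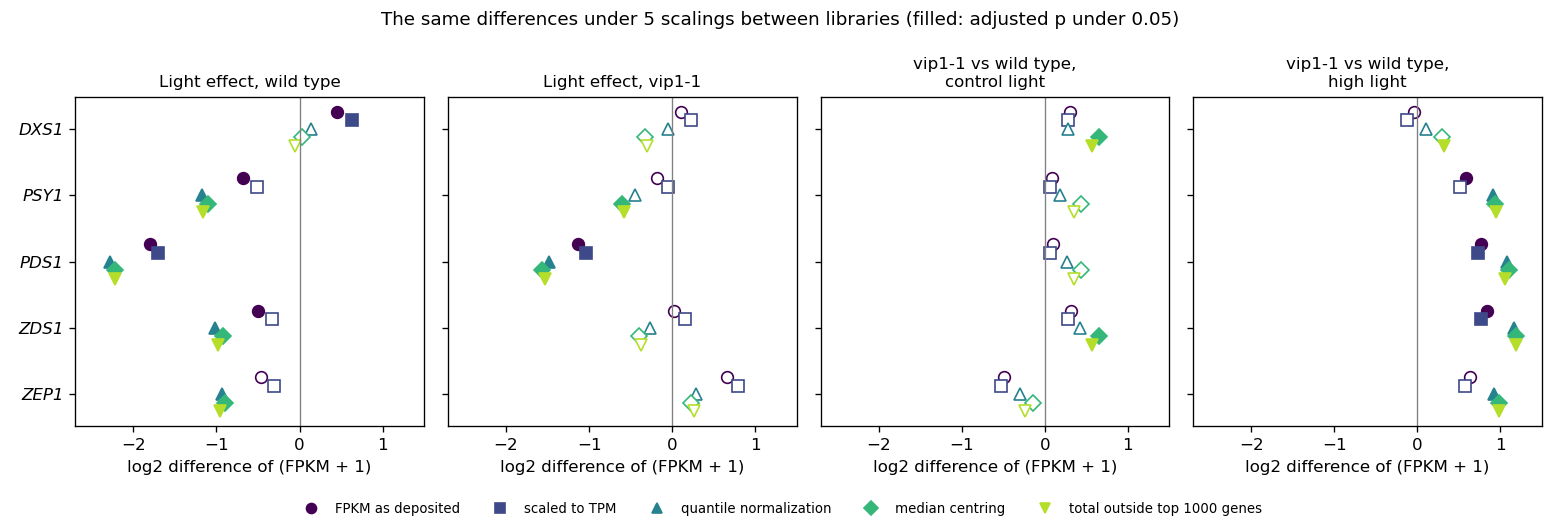
Log2 differences of the 5 tested genes under 5 ways of scaling libraries to each other, with filled symbols for an adjusted p under 0.05. PDS1 is lower in high light in both strains and PDS1 and ZDS1 are higher in vip1-1 high light under all 5 scalings, while the light effect of DXS1 in the wild type ranges across 0.

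Whether the strains responded differently to light was tested by the interaction, in which the wild-type light effect is subtracted from the vip1-1 one. None of the 5 genes passed the threshold (limma, 0 of 5, beside 8.71% of all tested genes, 3.82% higher and 4.89% lower), and 2 had an unadjusted p under 0.05. These were ZDS1, with an interaction of 0.53 (SE 0.22, p 0.0378 unadjusted, adjusted p = 0.170, limma), and PDS1, with 0.67 (SE 0.30, p 0.0459 unadjusted, adjusted p = 0.188, limma). The interaction was 0.50 for PSY1 with a 95% interval from -0.17 to 1.17, 1.13 for ZEP1 from -0.03 to 2.29, and -0.35 for DXS1 from -0.76 to 0.05. It was thus above 0 for 4 of the 5 genes, and the median of the 5 was 0.53 beside 0.00 for all genes. Without wild-type high light replicate 2 ZDS1 passed the threshold (0.70, adjusted p = 0.0227, limma), while the interaction was 0.58 for ZEP1 and 0.28 for PSY1. That fit called 15.4% of all tested genes. For PSY1 the interaction was 0.30 when replicate 3 of vip1-1 high light was left out. The fall of PSY1 and ZDS1 in the wild type and its absence from the calls in vip1-1 is therefore not shown to be a difference between the strains when all 12 libraries are used.

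**Figure D4:**
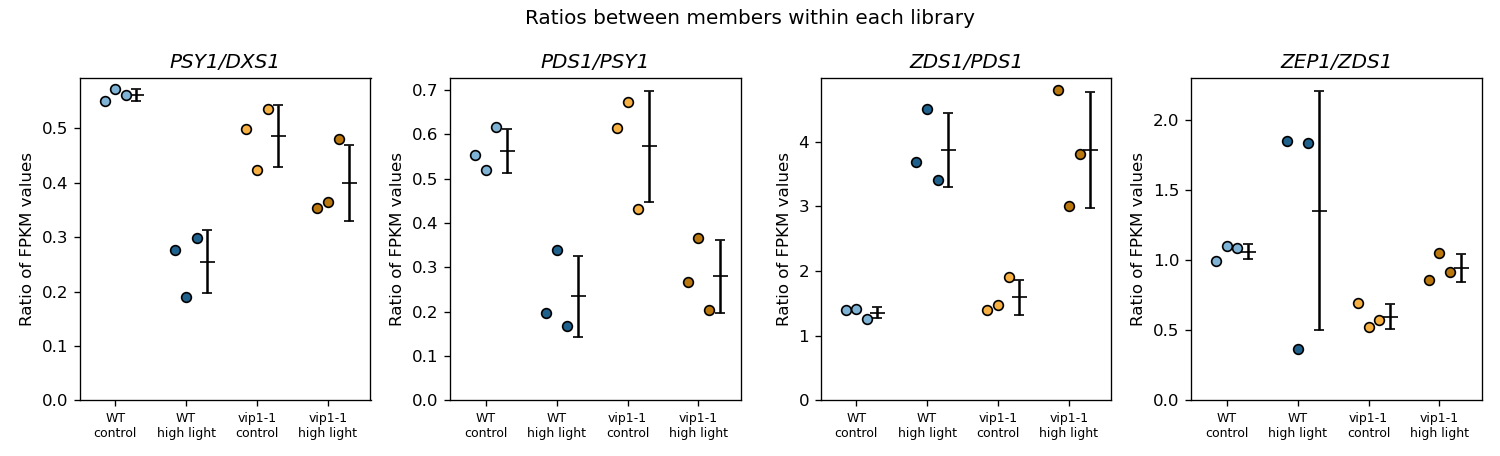
Ratios of FPKM values between genes that follow one another in the list of 6 in pathway order (CHYB1 left out), one point per library, with the group mean and SD (n = 3). Not all of these pairs encode enzymes of successive steps. The ZDS1 to PDS1 ratio lies between 1.26 and 1.91 in the 6 control libraries and between 3.00 and 4.80 in the 6 high light libraries.

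Ratios within a library do not depend on how libraries were scaled to each other, and are given without a test. The size of ratios with PSY1 or PDS1 also rests on how the values of these genes were formed, which is not stated. The ratio of ZDS1 to PDS1, the enzymes of successive desaturations, was 1.36 ± 0.084 under control light and 3.87 ± 0.57 under high light in the wild type (SD, n = 3). The vip1-1 ratios were 1.60 ± 0.27 and 3.87 ± 0.90. In both strains the ratio under high light lay above that of all control libraries, and the strains overlapped in high light. The ratio of PDS1 to PSY1 was 0.563 ± 0.050 in the control and 0.235 ± 0.092 in the high light libraries of the wild type, and 0.573 ± 0.126 and 0.280 ± 0.082 in those of vip1-1 (SD, n = 3). Here too no high light library reached a control library.

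The ratio of PSY1 to DXS1, from the first carotenoid-specific step to precursor supply, was 0.561 ± 0.011 under control light and 0.255 ± 0.058 under high light in the wild type (SD, n = 3). The vip1-1 ratios were 0.485 ± 0.057 and 0.399 ± 0.070. The 3 wild-type high light libraries, at up to 0.298, were below the 3 vip1-1 high light libraries, at 0.353 or more, and the light levels overlapped in vip1-1. The ratio of ZEP1 to ZDS1 under control light was 1.06 ± 0.056 for the wild type and 0.598 ± 0.088 for vip1-1 (SD, n = 3), without overlap. In high light it was 0.941 ± 0.0997 in vip1-1, while the wild-type libraries gave 1.85, 0.367 and 1.84, so that replicate 2 stood apart from replicates 1 and 3.

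The profiles of the 5 tested genes over the 12 libraries were compared by the root mean square (RMS) difference of log2(FPKM + 1) values centred on each gene's mean, in log2 units. The smallest difference was that between PSY1 and ZDS1, at 0.36, and the largest that between DXS1 and PDS1, at 0.93. PDS1 varied most, with an RMS of 0.81 around its own mean, beside 0.50 for ZEP1, 0.37 for PSY1, 0.37 for ZDS1 and 0.21 for DXS1. The difference of 0.36 between PSY1 and ZDS1 was thus nearly as large as the variation of either gene. Genes other than the 6 with the most similar profiles are named by ID only, since the sources used here give them no name.

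Nearest to PDS1 was Cre09.g386743_4532.v6.1, at an RMS difference of 0.20, with mean levels of 6.103 and 0.990 FPKM in the wild type and 5.94 and 2.82 FPKM in vip1-1, control before high light. Next was Cre07.g800769_4532.v6.1, at 0.21, with 291 and 96.1 FPKM in the wild type and 319 and 170.0 FPKM in vip1-1. Both had their lowest mean in wild-type high light, as PDS1 did, but they were chosen for likeness to PDS1, so this is no separate result. Nearest to ZDS1 were Cre09.g412100_4532.v6.1 (0.13) and Cre03.g207000_4532.v6.1 (0.14). The former is expressed at a far higher level, with 2181 and 1544 FPKM in the wild type and 2543 and 2393 FPKM in vip1-1, in control and high light.

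For PSY1 the nearest were Cre04.g224650_4532.v6.1 (RMS difference 0.15) and Cre12.g499350_4532.v6.1 (0.16), and for DXS1 they were Cre12.g559250_4532.v6.1 and Cre12.g523850_4532.v6.1, both at 0.11. Nearest to ZEP1 were Cre14.g614050_4532.v6.1 (0.19) and Cre13.g801550_4532.v6.1 (0.20), with group means of 5.85 and 1.15 FPKM in vip1-1 control that were their lowest, as for ZEP1. Here too the likeness follows from how these genes were chosen. No nearest genes are given for CHYB1, whose profile rests on 3 values above 0.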

How the data were processed

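Poly(A) RNA of 12 Chlamydomonas libraries was sequenced from stranded mRNA libraries, per the labels' protocols. The authors deposited a single table of FPKM values per gene and library; HISAT2 and StringTie are named in the submitters' processing notes, and their versions and settings, the genome build and the read depth are not given in the sources used here. Gene IDs carry the suffix of the CC-4532 version 6.1 annotation. Values of PSY1 and PDS1, like those of 6218 genes in all, carry more than 6 decimals and the other 4 members do not; how the authors formed such values is not stated. Columns were matched to samples by library name. All 6 members matched a RefSeq locus tag of assembly v5.5, which differs from the build of the files, so no coordinates are given, and that table names no gene, so a planned list of other pathway genes held 0 genes.

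Values were transformed to log2(FPKM + 1), and a gene was tested if 3 or more libraries reached an FPKM of 1 (12575 genes). A model of 4 group means with one spread per gene was fitted with limma 3.58.1 (R 4.3.3, variance trend), with 5 two-sided contrasts adjusted over all tested genes. It was also run on simulated data with independent noise and the same spread per gene in every group. That run cannot show whether these libraries meet those conditions. Figures used matplotlib 3.10.9. The fit was repeated with changed pseudocounts, low-value filters, library scalings, variance models and sample sets, with a replicate block, and with libraries left out. Named genes are the members and, for each but CHYB1, the 2 tested genes with the smallest RMS difference of centred profiles. The members and lists were chosen with earlier results of these data known.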

Additional observations from a re-analysis of the deposited data

How the results depend on the processing

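The number of the 5 tested genes past the threshold was 4 for light in the wild type, 1 for light in vip1-1, 0 for the strains in control light, 3 for the strains in high light and 0 for the interaction (limma). Among all tested genes 58.4%, 41.5%, 32.4%, 46.4% and 8.71% were called. Leaving out one library at a time gave 2 to 4, 1 to 2, 0 to 1, 2 to 3 and 0 to 1 of the 5. Rescaling to TPM gave 2 for light in the wild type, beside 62.2% of all tested genes. For the strains in high light TPM gave 2, as did dropping the low-value filter, while median centring and quantile normalization each gave 4. The shares of all tested genes were 48%, 37.3%, 42.2% and 40.7%. Median centring gave 2 for light in vip1-1 and 2 for the strains in control light, beside 17.8% and 24.6% of all tested genes. Scaling libraries by their FPKM sum without the 1000 most abundant genes gave 2, 2 and, for the strains in high light, 5, beside 22%, 29.7% and 41%. With only the groups compared, ZDS1 lost its call for light in the wild type and PSY1 its call for the strains in high light. In those fits the numbers were 2 for light in vip1-1 and 3 for the strains in control light. Without wild-type high light replicate 2 and vip1-1 high light replicate 1 together they were 2 and 3, and 1 for the interaction. This last alternative and the scaling without the 1000 most abundant genes were chosen after seeing the data.

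Some directions turned, that of the called rise of DXS1 in the wild type among them. Under median centring, quantile normalization and scaling without the 1000 most abundant genes, the light effect in vip1-1 was -0.32, -0.049 and -0.30 for DXS1 and -0.40, -0.27 and -0.37 for ZDS1, and the strain difference of DXS1 in high light was 0.30, 0.10 and 0.32. The last scaling gave -0.056 for DXS1 under light in the wild type. Without the 2 libraries together ZEP1 was at 0.083 under light in the wild type, PSY1 at 0.019 under light in vip1-1 and DXS1 at 0.044 between strains in high light. Leaving out one library gave -0.81 to 0.083 for ZEP1 under light in the wild type, -0.37 to 0.019 for PSY1 and -0.034 to 0.11 for ZDS1 under light in vip1-1, -0.025 to 0.28 for PDS1 between strains in control light and -0.11 to 0.075 for DXS1 in high light. The causes were not tested. The mean log2 ratio of ZDS1 to PDS1 in wild-type high light was 1.94 with a pseudocount of 0.01, beside 1.72.

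Calls across all genes split differently by scaling: 76.5% were higher under light in the wild type as deposited and 46.5% after median centring, and the shares were 90.2% and 39.2% for light in vip1-1, 19.7% and 59% for the strains in control light and 26% and 54.3% in high light. A replicate block left the counts of members at 4, 1, 0, 3 and 0 and gave 744 genes for the interaction, beside 1095. Deviations of same-numbered libraries from their group means had correlations from -0.49 to 0.48 across genes, over 0.1 in 4 of 18 pairs. Differently numbered libraries of different groups gave -0.53 to 0.48, over 0.1 in 10 of 36 pairs. A library was most similar to its own number in 7 of 36 cases. The numbers were not taken as pairs because the labels do not say that equal numbers share a culture, batch or day. The model treats all libraries as independent, and the source of deviations shared across groups was not tested. No ratio with CHYB1 and no other pathway gene could be given. Unknown depth leaves precision to the 3 replicates.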
